A study of Arabidopsis thaliana with 23 samples.

Results

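The genes described here are EXPA7 (AT1G12560), EXPA18 (AT1G62980), the class III peroxidases AT3G49960 and AT1G30870, and the loci AT5G04960 and AT3G25930. These 6 genes, of 13350 named by a probe set of their own, were chosen by name after their signal had been seen to be low with PEO-IAA, so their values in PEO-IAA and in mock are a description and carry no test. Each gene was measured by 1 probe set, and all 6 probe sets passed the filter on low values. Whole Arabidopsis thaliana seedlings, ecotype Col-0, were profiled on 23 Affymetrix ATH1 arrays, 1 biotin-labelled total RNA sample per array. Seedlings of every group spent 6 or 7 days on agar and 1 day in shaken liquid medium before a treatment of 3 h.

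Replicates 1 to 3 comprised mock-treated seedlings, seedlings given IAA (indole-3-acetic acid, a natural auxin) at 1 µM, seedlings given PEO-IAA at 10 µM with and without IAA at 1 µM, and seedlings given kynurenine at 30 µM, with 3 arrays in each group. Replicates 4 and 5 comprised mock-treated seedlings, seedlings given PPBo at 10 µM with and without IAA at 1 µM, and seedlings given IAA alone at 100 nM, with 2 arrays in each group. Each treatment was set against the mock of the same replicate numbers. The labels name no separate cultures for the replicates, and p-values therefore cover the spread among these samples alone, part or all of which may be technical. By its title, the study used auxin inhibitors to look for auxin-responsive genes.

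The IAA array of replicate 3 at 1 µM stood apart from all others. Its signals correlated with those of the other arrays at a median of 0.881, whereas the rest ranged from 0.951 to 0.969. Its GAPDH signal was 24.4 times as high at the 3′ end as at the 5′ end, which reports on RNA integrity, against 1.19 to 2.05 times elsewhere. Values of the 6 genes and of gene lists that use it are also given without it.

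Root hairs are tubular outgrowths of single epidermal cells that take up water and nutrients, and auxin promotes their growth. Alpha-expansins loosen plant cell walls, and EXPA7 and EXPA18 are known from Arabidopsis as expansins of root hair cells. Class III peroxidases are secreted enzymes that use hydrogen peroxide to cross-link or loosen wall polymers. PEO-IAA blocks the TIR1/AFB auxin receptors, kynurenine inhibits the auxin synthesis enzyme TAA1, and PPBo inhibits the YUCCA enzymes that act after it. The gene table used here gives AT5G04960 and AT3G25930 no name beyond the locus code, and no role is stated for them.

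Only few markers bear on the label of root hair genes. Of 43 loci with root hair in their gene table names, 0 had a probe set that named them here. Of 9 markers of the hairless epidermis and its patterning, 1 had a probe set that named it. Its signal was 8.38 to 60.7, and it did not pass the filter on low values. Of 17 markers of other root tissues, 0 had a probe set that named them. Since 8794 probe sets are unnamed here, more of these loci may be on the array. The 7 genes tested from 3 lists of root hair genes, AT2G41970 lowest and CSLD2 highest, had log2 changes between -1.09 and 0.13 with PEO-IAA, and limma called 0 of them. In RNA of whole seedlings, fewer cells of a type and less RNA per cell cannot be told apart.

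All 6 genes had a mean signal below their mock in each of the 7 treatment groups, with the auxin, with the inhibitors and with both. The background share of probe sets with a log2 change below 0 was 50.6% with PEO-IAA, 50.4% with PEO-IAA plus IAA, 49.9% with 1 µM IAA, 51.5% with kynurenine, 48.6% with PPBo, 45.6% with 100 nM IAA and 46.5% with PPBo plus IAA. The 4 treatments of replicates 1 to 3 share 1 set of mock arrays, as do the 3 of replicates 4 and 5. PEO-IAA against mock chose the genes, and the other treatments of replicates 1 to 3 use the same mock arrays, which favours values below mock. Nothing is read from the direction in these 4 treatments. PEO-IAA gave the lowest group mean of every one of the 6 genes, at 2.70% of mock for AT3G49960 and up to 29.0% for EXPA18, with a median of 19.8%. Without single arrays, 2 of these means lay above mock, EXPA7 with PEO-IAA plus IAA (log2 change 0.051 without its replicate 3) and AT1G30870 with kynurenine (0.12 without mock replicate 1). The group with the next lowest mean did not overlap with PEO-IAA for any of the 6, in percent of the own mock. A group further up did overlap for AT3G49960: PEO-IAA plus IAA replicate 3, at 3.23%, lay within the PEO-IAA range of 0.82% to 5.65%.

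EXPA7 had signals (linear MAS5 intensity) of 138, 145 and 94.8 in mock replicates 1 to 3 and of 47.0, 30.6 and 5.89 with PEO-IAA. EXPA18 had signals of 297, 292 and 224 in mock and of 93.5, 85.9 and 56.3 with PEO-IAA. Every PEO-IAA array lay below every mock array for both expansins. In means ± SD, EXPA7 went from 126 ± 27.2 (n = 3) to 27.9 ± 20.7 (n = 3), and EXPA18 from 271 ± 40.8 (n = 3) to 78.6 ± 19.7 (n = 3).

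The peroxidase AT3G49960 had signals of 210.0, 255 and 136 in mock and of 3.29, 11.3 and 1.64 with PEO-IAA. The peroxidase AT1G30870 had signals of 635, 505 and 319 in mock and of 174, 78.8 and 58.0 with PEO-IAA. AT3G49960 thus lay among the dimmest probe sets after PEO-IAA, at percentile 5.25 of all probe sets, while AT1G30870 lay at percentile 37.0. In the mean of mock replicates 1 to 5 they lay at percentiles 59.0 and 76.5. That mean includes mock replicates 4 and 5, which were brighter than replicates 1 to 3 for both genes. Detection calls were not used here, so it is not known whether AT3G49960 was above background with PEO-IAA.

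AT5G04960 had signals of 234, 231 and 198 in mock and of 25.3, 38.4 and 26.0 with PEO-IAA. AT3G25930 had signals of 287, 451 and 390.2 in mock and of 63.3, 88.4 and 54.3 with PEO-IAA. These loci did not overlap between the groups either, so that 6 of 6 genes were lower with PEO-IAA on every array, against a background of 5.99% of tested probe sets. Nothing is read from that count, since PEO-IAA against mock chose the genes.

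**Figure D1:**
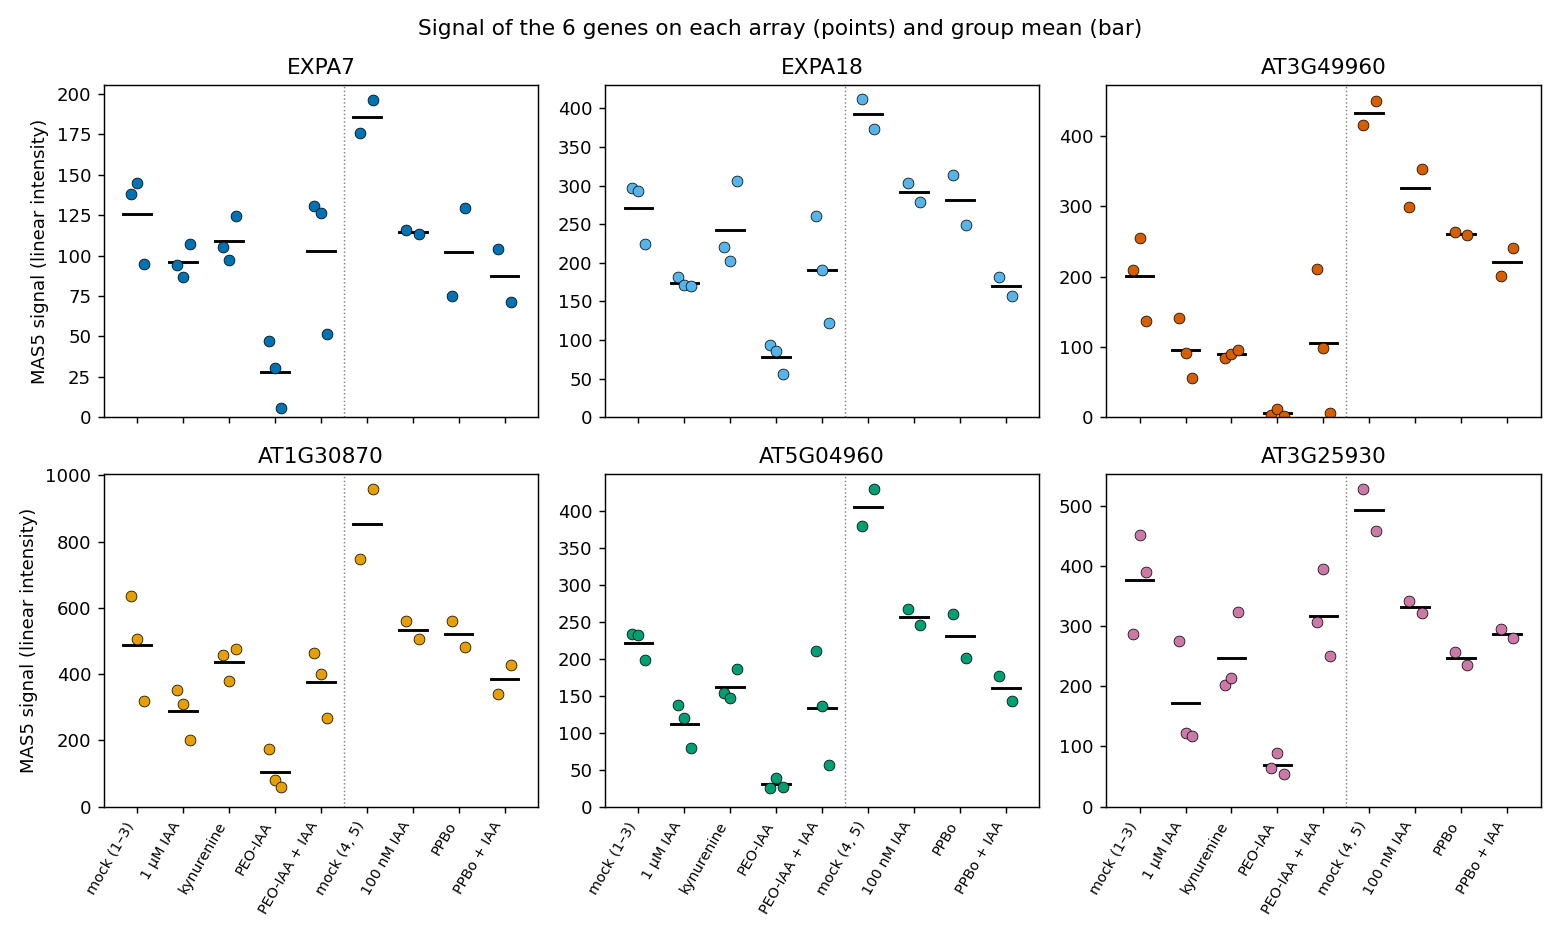
Each panel plots 1 gene, with the 9 groups on the horizontal axis, the linear MAS5 signal on the vertical axis, a point per array and a bar at the group mean, and a dotted line parts replicates 1 to 3 from replicates 4 and 5. PEO-IAA has the lowest group mean in every panel, with EXPA7 signals between 5.89 and 47.0, and mock replicates 4 and 5 have the highest mean in each.

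On the scale of log2(signal + 7.54), where 7.54 is a pseudocount that damps changes of dim genes, the change from mock to PEO-IAA was -2.11 ± 0.39 (SE) for EXPA7 and -1.71 ± 0.23 for EXPA18. It was -4.03 ± 0.61 for AT3G49960, -2.24 ± 0.31 for AT1G30870, -2.62 ± 0.30 for AT5G04960 and -2.33 ± 0.27 for AT3G25930. Among 15922 tested probe sets, these changes held ranks 3 (AT3G49960) to 28 (EXPA18) from the lowest. For AT3G49960 the size depends on the pseudocount and scaling, and lay between -4.98 and -2.67 over the alternatives that kept all arrays. Without PEO-IAA replicate 3, the lowest array for EXPA7, the change of EXPA7 was -1.53. Of 27 leaf photosynthesis markers, 3 had a probe set that named them. These leaf markers had a summed signal of 37148 to 40169 with PEO-IAA and of 33269 to 37264 in mock, and their part in the lower signals was not tested.

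IAA beside PEO-IAA gave higher signals of these genes than PEO-IAA alone. With PEO-IAA plus IAA, EXPA7 had signals of 131, 127 and 51.2, and EXPA18 of 261, 190.3 and 122. AT3G49960 had signals of 211, 98.9 and 6.48, and AT1G30870 of 463, 401 and 267. AT5G04960 had signals of 211, 135 and 55.9, and AT3G25930 of 306, 394 and 250.4. On replicate 1 all 6 genes lay within the range of mock, on replicate 2 this held for EXPA7, AT1G30870 and AT3G25930, and replicate 3 was the lowest for all 6 genes. AT3G49960 on replicate 3 lay within the PEO-IAA range.

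The log2 change from PEO-IAA to PEO-IAA plus IAA was 1.76 ± 0.39 for EXPA7, 1.17 ± 0.23 for EXPA18, 2.48 ± 0.61 for AT3G49960, 1.89 ± 0.31 for AT1G30870, 1.76 ± 0.30 for AT5G04960 and 2.09 ± 0.27 for AT3G25930. For 5 of 6 genes every array with IAA lay above every array without it, against a background of 5.68%, and AT3G49960 overlapped. No test is given, since the PEO-IAA arrays chose the genes, which favours higher values with PEO-IAA plus IAA.

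Against mock, PEO-IAA plus IAA left the 6 genes at 52.6% (AT3G49960) to 84.3% (AT3G25930) of the mock mean, and the groups overlapped for all 6, so that 0 of 6 were lower on every array against a background of 5.38%. The median over the 6 genes was 95.7% of mock on replicate 1, 76.3% on replicate 2 and 42.9% on replicate 3. In log2 terms the change from mock was -0.35 ± 0.39 for EXPA7, -0.54 ± 0.23 for EXPA18, -1.55 ± 0.61 for AT3G49960, -0.34 ± 0.31 for AT1G30870, -0.86 ± 0.30 for AT5G04960 and -0.24 ± 0.27 for AT3G25930. Without PEO-IAA plus IAA replicate 3, EXPA7 turned to 0.051, AT3G49960 came to -0.40, AT5G04960 to -0.37, EXPA18 to -0.26, AT1G30870 to -0.12 and AT3G25930 to -0.087.

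IAA alone gave no group mean above mock for any of the 6 genes. With 1 µM IAA, EXPA7 had signals of 94.2, 86.5 and 107, and EXPA18 of 182, 171 and 169. AT3G49960 had signals of 141, 91.5 and 56.3, and AT1G30870 of 352, 309 and 202. AT5G04960 had signals of 138, 120.2 and 79.1, and AT3G25930 of 275, 122 and 118. EXPA18, AT5G04960 and AT3G25930 did not overlap with mock and were lower, 3 of 6 genes against a background of 7.84%, and the other genes overlapped. That count is a description, since the mock arrays helped choose the genes.

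The log2 change with 1 µM IAA was -0.35 ± 0.39 for EXPA7, -0.61 ± 0.23 for EXPA18, -1.04 ± 0.61 for AT3G49960, -0.73 ± 0.31 for AT1G30870, -0.96 ± 0.30 for AT5G04960 and -1.18 ± 0.27 for AT3G25930. The array of replicate 3 that stood apart was the lowest of its group for 5 of the 6 genes and the highest for EXPA7, and without it the median change of the 6 genes went from -0.84 to -0.66. Without it the changes were -0.43 for EXPA7, -0.59 for EXPA18, -0.74 for AT3G49960, -0.50 for AT1G30870, -0.74 for AT5G04960 and -0.98 for AT3G25930. EXPA7 then joined the genes that did not overlap with mock, 4 of 6 against 13.8% of tested probe sets. That count, too, uses the mock arrays that helped choose the genes. Over all arrays of 1 µM IAA and mock, 6 of 6 genes of an early auxin-induced core rose in the limma fit, against a background of 0.911% called higher. That list (GH3.3, GH3.5, HAT2, LBD16, LBD29 and IAA29) was chosen with earlier results of these data known, so its counts are a description. Its median log2 change was 2.90. Without IAA replicate 3, 5 of 6 rose, against 0.992% of tested probe sets, with a median of 3.01. With PEO-IAA against mock, the conjugating enzyme genes GH3.3 (-2.19 ± 0.42, adjusted p = 0.0129 in limma) and GH3.5 (-1.50 ± 0.27, adjusted p = 0.00826 in limma) fell, 2 of 6 against a background of 0.295% called lower.

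Kynurenine gave the group mean closest to the own mock for 4 of the 6 genes, EXPA7, EXPA18, AT1G30870 and AT5G04960. EXPA7 had signals of 106, 97.4 and 125, EXPA18 of 220.4, 202 and 306, and AT1G30870 of 457, 380.2 and 476. AT3G49960 had signals of 83.7, 89.6 and 95.6, AT5G04960 of 154, 147 and 186, and AT3G25930 of 201, 214 and 324. AT3G49960 and AT5G04960 lay below mock on every array, 2 of 6 genes against a background of 3.82%, and the other genes overlapped. Here too the mock arrays helped choose the genes, so the count is a description. The log2 change ran from -1.06 ± 0.61 for AT3G49960 to -0.10 ± 0.31 for AT1G30870, with EXPA7 at -0.18 ± 0.39, EXPA18 at -0.16 ± 0.23, AT5G04960 at -0.43 ± 0.30 and AT3G25930 at -0.60 ± 0.27.

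**Figure D2:**
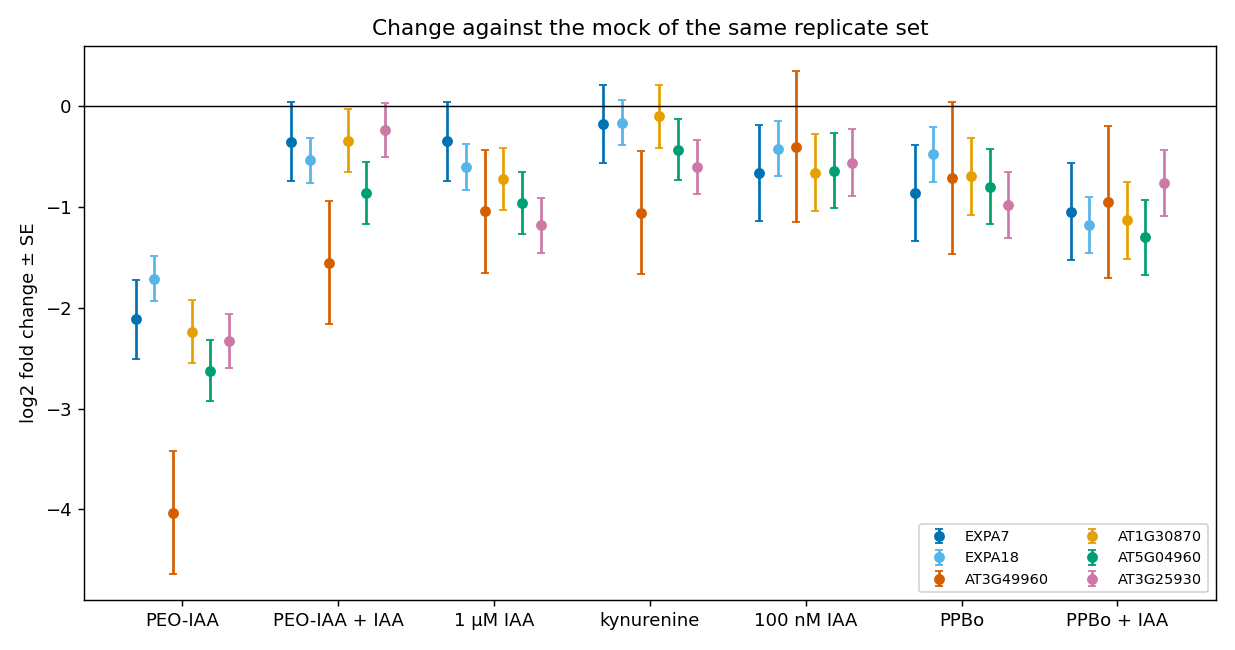
Log2 change of each gene against the mock of the same replicate numbers (vertical axis), by treatment (horizontal axis), with bars of 1 SE from the limma fit. All points lie below 0, and those of PEO-IAA lie lowest, from -1.71 for EXPA18 to -4.03 for AT3G49960.

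Comparisons that used neither the mock arrays of replicates 1 to 3 nor the PEO-IAA arrays were tested, with limma and Benjamini-Hochberg adjustment over all 15922 tested probe sets, and called at an adjusted p below 0.05. Between PEO-IAA plus IAA and IAA alone at the same 1 µM, limma called 0 of the 6 genes, against backgrounds of 0.113% called lower and 0.251% called higher. At an unadjusted p below 0.05 there was 1 gene, against 5.92% of all tested probe sets lower and 6.29% higher. That gene was AT3G25930, higher by 0.94 ± 0.27 with PEO-IAA present (95% interval 0.38 to 1.51, limma adjusted p = 0.193). EXPA7 differed by -0.0025 ± 0.39 (95% interval -0.82 to 0.81, limma adjusted p = 0.998) and EXPA18 by 0.066 ± 0.23 (-0.41 to 0.54, limma adjusted p = 0.906). The intervals ran from -1.79 to 0.78 for AT3G49960, from -0.27 to 1.03 for AT1G30870 and from -0.54 to 0.74 for AT5G04960. With 3 arrays in each group, differences of any size within these intervals remain compatible with the data. Without IAA replicate 3, limma again called 0 of 6, and AT3G25930 differed by 0.74 (limma adjusted p = 0.643).

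Between kynurenine and 1 µM IAA, which differ in kind and dose, limma also called 0 of 6 genes, against backgrounds of 1.64% called lower and 1.82% called higher. At an unadjusted p below 0.05 there was 1, AT3G25930, against 9.13% of all tested probe sets lower and 9.21% higher. EXPA18, AT5G04960 and AT1G30870 were higher with kynurenine on every array, 3 of 6 against a background of 7.32%. The log2 differences were 0.44 ± 0.23 for EXPA18 (limma adjusted p = 0.295), 0.53 ± 0.30 for AT5G04960 (limma adjusted p = 0.339) and 0.62 ± 0.31 for AT1G30870 (limma adjusted p = 0.286). AT3G25930 differed by 0.58 ± 0.27 (limma adjusted p = 0.260), EXPA7 by 0.17 ± 0.39 and AT3G49960 by -0.012 ± 0.61. Without IAA replicate 3, limma again called 0 of 6, and the differences of EXPA18, AT5G04960 and AT1G30870 were 0.42, 0.31 and 0.40. Without it EXPA7 was also higher on every array, 4 of 6 genes against 11.9% of tested probe sets.

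Mock signals differed between the replicate sets. In mock replicates 4 and 5, EXPA7 had signals of 176 and 196, EXPA18 of 413 and 374, and AT3G49960 of 415 and 450.4. AT1G30870 had signals of 748 and 958, AT5G04960 of 380.0 and 429, and AT3G25930 of 529 and 458. Every one lay above every mock array of replicates 1 to 3, by a ratio of means from 1.31 (AT3G25930) to 2.16 (AT3G49960). The summed leaf marker signal was also higher in mock replicates 4 and 5, at 44978 to 50370 (3 of 27 markers with a probe set naming them). The summed signal of 3 reference genes was 2555 to 2560 against 2195 to 2309. The part of leaf markers and reference genes in the difference was not tested.

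PPBo was followed by lower signals of all 6 genes. With PPBo, EXPA7 had signals of 74.9 and 129.7, EXPA18 of 314 and 249, and AT3G49960 of 263 and 259. AT1G30870 had signals of 560.1 and 482, AT5G04960 of 259.9 and 201, and AT3G25930 of 257 and 235. All 6 lay below both mock arrays, but with 2 arrays in each group 20.9% of all tested probe sets did so, and the means were 49.9% (AT3G25930) to 71.6% (EXPA18) of mock.

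In the limma fit over all 23 arrays, PPBo against mock called 0 of the 6 genes, against a background of 0.251% called lower. At an unadjusted p below 0.05, 2 were lower, as were 2.81% of all tested probe sets. The largest log2 change was that of AT3G25930, -0.98 ± 0.33 (limma adjusted p = 0.468), followed by EXPA7 at -0.86 ± 0.48 and AT5G04960 at -0.80 ± 0.37 (limma adjusted p = 0.936). AT3G49960 changed by -0.71 ± 0.75, AT1G30870 by -0.70 ± 0.38 and EXPA18 by -0.48 ± 0.28. That fit shares 1 spread per gene over all groups, and the pooled SD of log2 values within groups of the 6 genes was 0.33 to 1.01 in replicates 1 to 3 and 0.093 to 0.32 in replicates 4 and 5.

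Fitted on the arrays of replicates 4 and 5 alone, with 4 residual degrees of freedom, limma called 4 of 6 genes lower with PPBo, against a background of 1.42%. These were AT3G25930 (limma adjusted p = 0.0011), AT3G49960 (limma adjusted p = 0.0173), AT5G04960 (limma adjusted p = 0.0214) and AT1G30870 (limma adjusted p = 0.0301). The expansins were not called, with limma adjusted p = 0.112 for EXPA7 and 0.144 for EXPA18.

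With 100 nM IAA, EXPA7 had signals of 116 and 113, EXPA18 of 304 and 279, and AT3G49960 of 299.6 and 353. AT1G30870 had signals of 561 and 506, AT5G04960 of 268 and 245, and AT3G25930 of 342 and 321. All 6 lay below both mock arrays, as did 20.3% of all tested probe sets, at 61.6% (EXPA7) to 75.3% (AT3G49960) of mock. Limma over all arrays called 0 of the 6 genes, against a background of 0.144% called lower. Limma gave 0 of them an unadjusted p below 0.05, against 2.17% of all tested probe sets lower and 1.71% higher. On the arrays of replicates 4 and 5 alone it called 2 lower, AT3G25930 (-0.56 ± 0.12, limma adjusted p = 0.0421) and AT1G30870 (-0.66 ± 0.15, limma adjusted p = 0.046), against a background of 1.21%.

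The lowest group means of replicates 4 and 5 for 5 of the 6 genes came with PPBo plus 1 µM IAA. EXPA7 had signals of 104 and 71.2, EXPA18 of 182 and 157, and AT3G49960 of 201 and 240.3. AT1G30870 had signals of 341 and 427, AT5G04960 of 177 and 143, and AT3G25930 of 294 and 280.0. The means were 39.6% (AT5G04960) to 58.2% (AT3G25930) of mock, and all 6 genes lay below both mock arrays, as did 20.2% of all tested probe sets. AT3G25930 was the exception, with its lowest group mean with PPBo.

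In the limma fit over all arrays, EXPA18 fell with PPBo plus IAA against mock, by -1.18 ± 0.28 (limma adjusted p = 0.0452), 1 of 6 genes against a background of 0.609% called lower. That call is close to the threshold, and it was lost without any 1 of the 4 mock and PPBo plus IAA arrays (limma adjusted p = 0.177 to 0.435). The log2 change was -1.30 ± 0.37 for AT5G04960 (limma adjusted p = 0.153), -1.13 ± 0.38 for AT1G30870 (limma adjusted p = 0.316), -1.05 ± 0.48 for EXPA7, -0.95 ± 0.75 for AT3G49960 and -0.76 ± 0.33 for AT3G25930. On the arrays of replicates 4 and 5 alone, limma called 6 of 6 genes lower, against a background of 2.45%, with adjusted p from 0.000469 (AT5G04960) to 0.0357 (EXPA7).

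With IAA added to PPBo, 4 of the 6 genes (EXPA18, AT3G49960, AT1G30870 and AT5G04960) were lower on both arrays than on both PPBo arrays, against a background of 19.4%. AT3G25930 was higher on both, 1 of 6 against a background of 20%, and EXPA7 overlapped. The log2 change from PPBo to PPBo plus IAA was -0.18 ± 0.48 for EXPA7, -0.70 ± 0.28 for EXPA18, -0.24 ± 0.75 for AT3G49960, -0.44 ± 0.38 for AT1G30870, -0.50 ± 0.37 for AT5G04960 and 0.22 ± 0.33 for AT3G25930. Limma over all arrays called 0 of 6, against backgrounds of 0.188% called lower and 0.415% called higher. Limma gave 1 (EXPA18, limma adjusted p = 0.707) an unadjusted p below 0.05, as for 2.48% of all tested probe sets that were lower. On the arrays of replicates 4 and 5 alone it called EXPA18 lower (limma adjusted p = 0.0262), 1 of 6 against a background of 1.23%. In the early auxin-induced core, 5 of 6 genes rose on the same comparison in the fit over all arrays, against the 0.415% called higher. Their list had a median log2 change of 2.69. It was chosen with earlier results of these data known, so the count is a description.

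**Figure D3:**
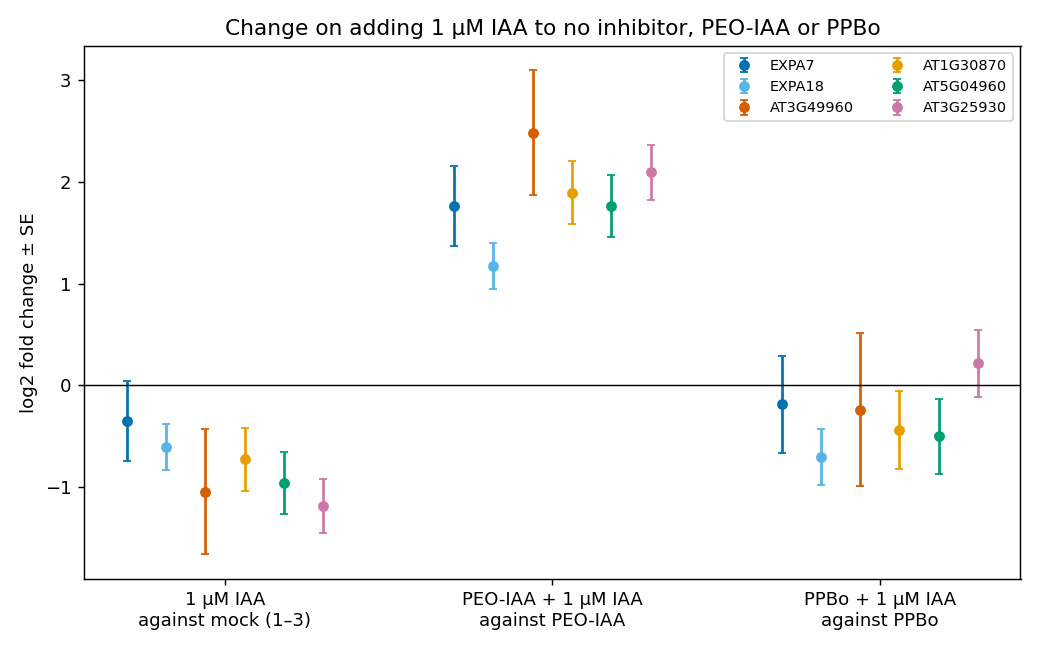
Log2 change of each gene when IAA was added (vertical axis), alone, beside PEO-IAA and beside PPBo (horizontal axis), with bars of 1 SE from the limma fit. The changes beside PEO-IAA are all above 0, from 1.17 for EXPA18 to 2.48 for AT3G49960, while those of 1 µM IAA alone are all below 0. The choice of the genes favours both of these directions.

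Deviations of single arrays from their group mean were also compared among the 6 genes. Over 23 arrays, the 15 pairs of genes had Pearson correlations of these deviations from 0.211 to 0.933, with a median of 0.493. Without the PEO-IAA and PEO-IAA plus IAA groups, over 17 arrays, they ran from 0.0075 to 0.786 with a median of 0.402. Without IAA replicate 3 as well, over 16 arrays, they ran from -0.026 to 0.84 with a median of 0.409. Over the 17 arrays, the pairs with EXPA7 ran from 0.0075 (AT5G04960) to 0.31 (EXPA18). All 6 genes were below the group mean on replicate 3 of PEO-IAA and on replicate 3 of PEO-IAA plus IAA, and none was below it on mock replicate 2, kynurenine replicate 3 or PEO-IAA plus IAA replicate 2. The points share an array, and so its RNA sample and scaling. Pairs of other genes were not compared, so it is not known whether these correlations are particular to the 6 genes. Pairs of same-numbered arrays of replicates 1 to 3 had a median correlation of deviations of 0.383 over all tested probe sets. That value is between arrays and not between genes, so it is no baseline for the pairs of genes above.

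**Figure D4:**
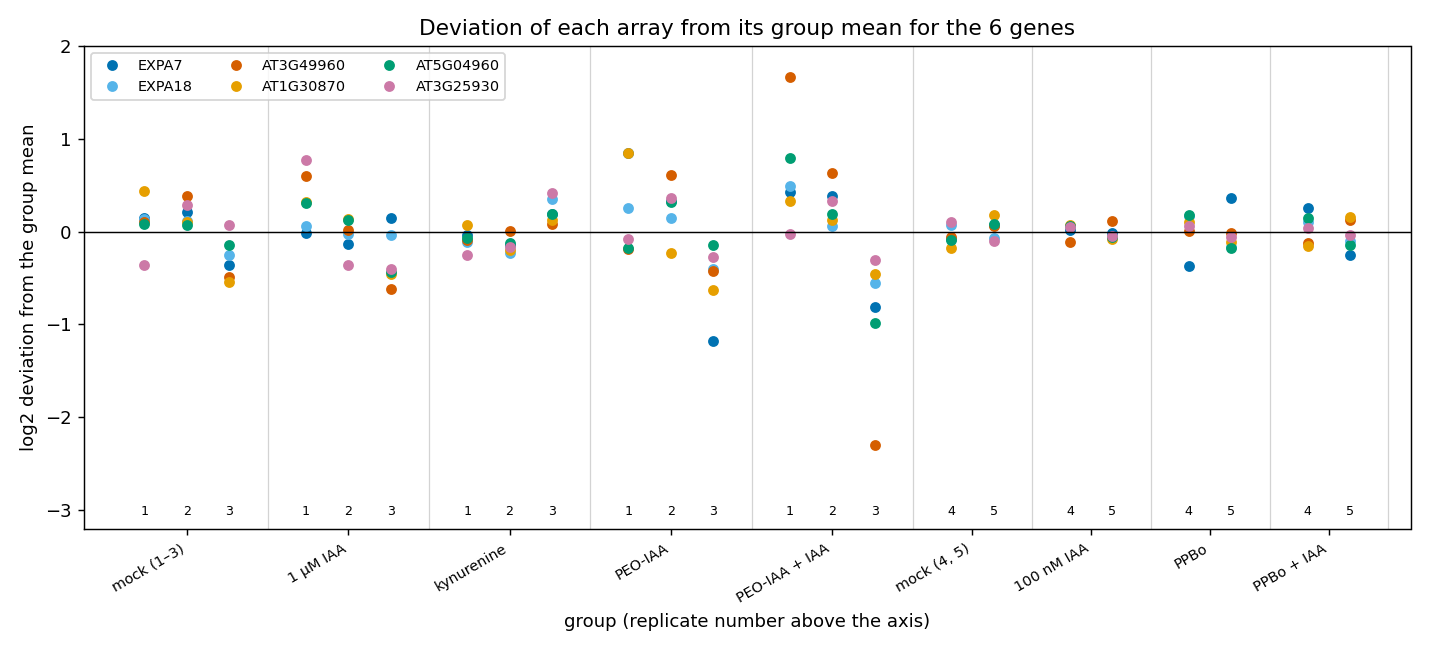
Deviation of each array from its group mean on the log2 scale (vertical axis) for the 6 genes (colours), by group and replicate number (horizontal axis). On replicate 3 of PEO-IAA plus IAA all 6 points lie below 0, with a median of -0.68.

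Likeness to the 6 genes was measured as Pearson's r over the 23 arrays, each centred on its own mock. The points share the mock arrays, and they include the PEO-IAA arrays for which the 6 genes were chosen, so their likeness to each other over all arrays follows in part from the choice. For each of the 6 genes, the other 5 were among the 10 most similar of 8716 probe sets. EXPA18 and AT5G04960 were each other's most similar gene (r = 0.951), AT3G49960 and AT3G25930 were most like AT5G04960 (r = 0.932 and 0.865), and AT1G30870 was most like EXPA18 (r = 0.923). EXPA7 was most like GH9C1 (AT1G48930, r = 0.935), a glycosyl hydrolase family 9 gene. Without IAA replicate 3 the other 5 were still among the 10 most similar for each of the 6 genes. Over the 17 arrays without the PEO-IAA and PEO-IAA plus IAA groups, 0 (EXPA7) to 2 of the other 5 genes were among the 10 most similar, and r between the 6 genes ran from 0.376 to 0.911. Over the 8 arrays of replicates 4 and 5, 1 of the other 5 was among the 10 most similar for AT5G04960 and 0 for every other gene, with r from 0.667 to 0.955. GH9C1 changed by -1.91 ± 0.28 from mock to PEO-IAA, by 1.44 ± 0.28 from there to PEO-IAA plus IAA, by -0.66 ± 0.34 with PPBo and by -0.90 ± 0.34 with PPBo plus IAA.

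Among 3986 genes with a mean signal above the median, those most like the mean profile of the 6 were AT4G26010 (r = 0.726), AT4G37660 (r = 0.71), AT1G14670 (r = 0.696), GH9C2 (r = 0.686), EXPA15 (r = 0.685), AT2G27590 (r = 0.674), AT3G13160 (r = 0.67) and AT2G30270 (r = 0.636). All of these had smaller changes with PEO-IAA than the 6 genes, the largest being AT4G26010 at -1.19 ± 0.40. The limit on signal left dimmer genes out and was not set on the 6 genes, so their level is not matched. GH9C1, the gene most like EXPA7, changed by -1.91 ± 0.28 with PEO-IAA, more than EXPA18 at -1.71 ± 0.23. For AT4G26010 the change from PEO-IAA to PEO-IAA plus IAA was 0.44 ± 0.40.

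**Figure D5:**
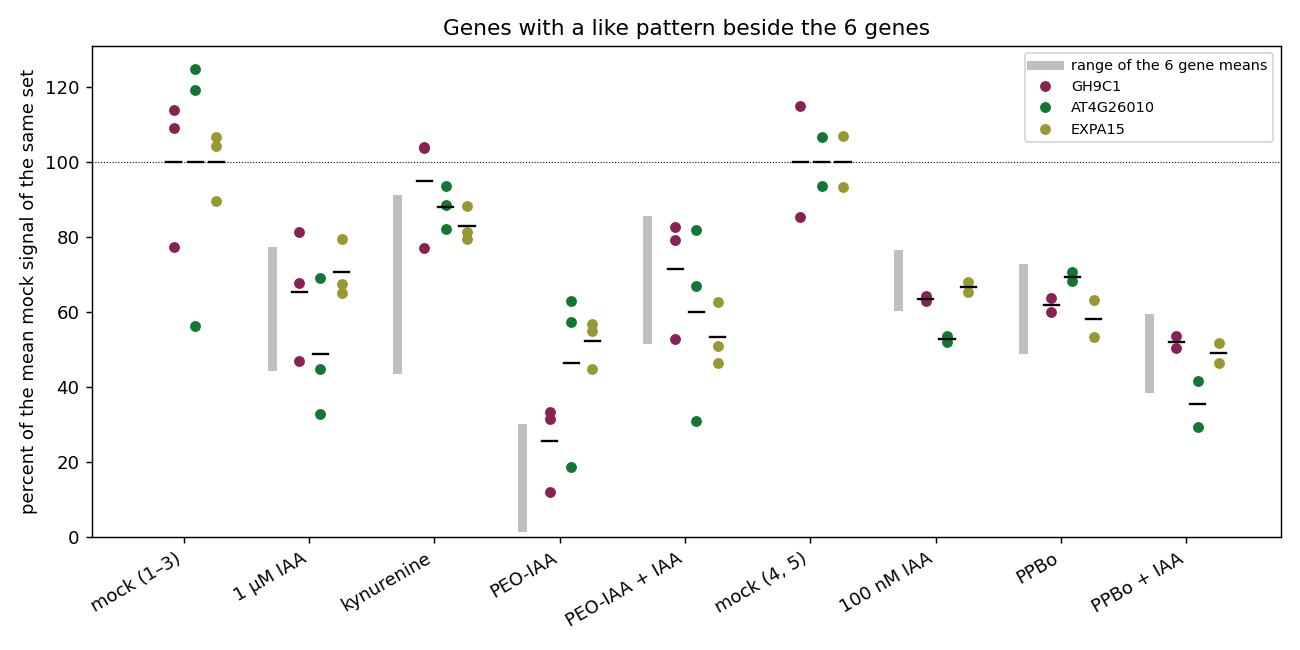
Signal in percent of the mean mock signal of the same replicate set (vertical axis) by group (horizontal axis), with the range of the 6 gene means as a grey bar, points per array and a line at the mean for GH9C1, AT4G26010 and EXPA15. With PEO-IAA the grey bar spans 2.70% to 29.0%, below all points of EXPA15.

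The other alpha-expansins differed among themselves. Of 23 other alpha-expansin loci, 8 had a probe set naming them and 6 were tested, and with PEO-IAA against mock 1 fell and 0 rose, against backgrounds of 0.295% called lower and 0.358% called higher. Their median log2 change was -0.21, against -0.0023 over all tested probe sets. The gene that fell was EXPA15, by -0.93 ± 0.13 (limma adjusted p = 0.000757). EXPA15 also fell against mock with PPBo (-0.77 ± 0.16, limma adjusted p = 0.0406) and with PPBo plus IAA (-1.02 ± 0.16, limma adjusted p = 0.0019). It fell with PEO-IAA plus IAA (-0.91 ± 0.13, limma adjusted p = 0.00107) as well. With PPBo, 2 of the 6 fell, against a background of 0.251% called lower. The other was EXPA8, by -1.59 ± 0.28 (limma adjusted p = 0.0105). With PPBo plus IAA 1 fell, against 0.609% called lower. With PEO-IAA plus IAA against mock 1 fell and 1 rose, against backgrounds of 0.578% and 0.49%. The 1 that rose was EXPA8 (limma adjusted p = 0.0174). From PEO-IAA to PEO-IAA plus IAA, 1 of the 6 other alpha-expansins rose and 0 fell, against backgrounds of 0.634% called higher and 0.659% called lower. That was EXPA8, by 1.02 ± 0.23 (limma adjusted p = 0.026). EXPA4 changed by 0.70 ± 0.21 (limma adjusted p = 0.189), EXPA20 by 0.52 ± 0.21 (limma adjusted p = 0.527) and EXPA15 by 0.026 ± 0.13, beside 1.76 for EXPA7 and 1.17 for EXPA18. EXPA8, EXPA4 and EXPA20 were named after their values were seen.

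Of 71 other class III peroxidase loci, 53 had a probe set naming them and 35 were tested. With PEO-IAA against mock limma called 0 of them, with 3 lower and 8 higher at an unadjusted p below 0.05, against 2.36% and 2.70% of all tested probe sets, and the median log2 change was -0.016. With 1 µM IAA against mock 3 fell and 2 rose, against backgrounds of 1.21% and 0.911%, and the median was -0.28 against 0.00038 over all tested probe sets. Without IAA replicate 3, 5 fell and 2 rose, against 1.19% and 0.992%, with a median of -0.22. The 2 peroxidases described above, AT3G49960 and AT1G30870, had changes of -4.03 and -2.24 with PEO-IAA.

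Of 21 listed root hair regulators, 4 had a probe set naming them and 3 were tested, FER (the receptor kinase FERONIA), SCN1 and AT2G41970. Of these, AT2G41970 fell with PPBo plus IAA against mock (-1.33 ± 0.31, limma adjusted p = 0.0409), 1 of 3 against the background of 0.609%. With PEO-IAA it changed by -1.09 ± 0.25 (limma adjusted p = 0.0528), and from PEO-IAA to PEO-IAA plus IAA by 0.42 ± 0.25. FER changed by 0.048 ± 0.19 with PEO-IAA and SCN1 by -0.037 ± 0.16. Of 27 listed genes of hair growth, 4 were named and 3 tested (CSLD2, AT1G26250 and AT5G06630), and limma called 0 in any of 11 comparisons, where the share of tested probe sets called in 1 direction was 0% to 1.82%. With PEO-IAA against mock, 1 of the 3 was lower at an unadjusted p below 0.05, as were 2.36% of all tested probe sets. Of 18 loci listed as root hair specific, 1 was tested (AT1G51860), at -0.21 with PEO-IAA, and it was called in 0 comparisons, with an unadjusted p below 0.05 for PPBo plus IAA against mock, as for 3.49% of all tested probe sets that were lower. With PEO-IAA against mock, 3 leaf markers and 3 reference genes were called in 0 cases each. An unadjusted p below 0.05 was found for 0 of them, against 2.36% of all tested probe sets lower and 2.7% higher.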

How the data were processed

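Transcript levels of whole seedlings were measured on 23 ATH1 arrays. The deposited values are linear MAS5 intensity values per probe set, per the submitters' processing notes, which give no version. All arrays had a 2% trimmed mean between 500.04 and 500.05, so no further scaling was applied. No detection calls or scanner files entered the work, and precision is limited by how many arrays there are.

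Controls (64 of 22810 probe sets) were removed. Signals were transformed to log2(signal + 7.54), the pseudocount being the 10th percentile of all values. Tests covered the 15922 probe sets whose mean exceeded the 30th percentile. A single linear model in limma 3.58.1 under R 4.3.3 (trended eBayes) held 9 group means with 14 residual degrees of freedom. Each of 11 contrasts was adjusted by Benjamini-Hochberg, and an adjusted p below 0.05 was a call. All adjusted p-values are from limma. The script was tested on simulated data.

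The genes described and all lists were chosen with earlier results of these data known, and the peroxidase list rests largely on general knowledge. Probe sets were named from the platform annotation, updated through the TAIR10.1 gene table: 13513 named 1 gene, 503 several and 8794 are unnamed here, and 13484 matched the table. No array pair held identical values. Named beside the 6 genes were tested genes of the 3 root hair lists, up to 3 called genes of each other list with PEO-IAA, the 8 genes most like the mean profile and the gene most like each single one. The other 4 genes of the early auxin-induced core were named after their values were seen. Likeness on fewer arrays and the lists without IAA replicate 3 were added after the data were seen. Alternatives covered the pseudocount, the filter, quantile normalization, array weights, a replicate block, the arrays fitted, the mock arrays pooled and each array left out. Sequences were not analysed here.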

Additional observations from a re-analysis of the deposited data

Results flagged for a closer look

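The direction of the change with 1 µM IAA differed between its use alone and its use beside PEO-IAA for all 6 genes. Every IAA array lay below the mock mean and every PEO-IAA plus IAA array lay above the PEO-IAA mean, 3 of 3 in each case. The change beside PEO-IAA minus the change alone was 2.11 on the log2 scale for EXPA7, 1.78 for EXPA18, 3.53 for AT3G49960, 2.62 for AT1G30870, 2.72 for AT5G04960 and 3.28 for AT3G25930. The difference was not tested, since the PEO-IAA and mock arrays chose the genes. That choice favours values below mock with IAA and values above PEO-IAA with PEO-IAA plus IAA. Nothing is read from these directions, and the share of all probe sets with this pattern was not counted. These differences include the array of IAA replicate 3 that stood apart. Without it the change with 1 µM IAA alone was still below 0 for all 6 genes, from -0.98 (AT3G25930) to -0.43 (EXPA7). Groups of 2 or 3 arrays are too small for a test of outlying values of single genes.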

How the results depend on the processing

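With PEO-IAA against mock, the median log2 change of the 6 genes (-2.28) came to -2.01 with 4 times the pseudocount, to -2.53 with mock replicates 1 to 5 as 1 control, and to -2.54 to -2.06 without single arrays. With that pooled control, the median with 1 µM IAA went from -0.84 to -1.18 and with kynurenine from -0.31 to -0.60. Between PEO-IAA plus IAA and IAA, and between kynurenine and IAA, 0 to 1 genes were called without single arrays. The 1 was AT3G25930 without IAA replicate 1, at 1.33 and 0.97. Calls over all probe sets without that array went from 58 to 102 and from 551 to 999. The number of genes called with PPBo (0) was 4 when only the groups compared, or only replicates 4 and 5, were fitted. With 100 nM IAA (0) it was 3 and 2. In these fits, calls over all probe sets went from 57 to 286 and 377 with PPBo. With 100 nM IAA they went from 51 to 480 and 297. With PPBo plus IAA against mock (1) the number was 0 without a filter, and 0 with one at the 50th percentile (3 genes tested). It was 0 with quantile normalization, 0 with the pooled control and 3 with array weights. It was 6 with only the groups compared, 6 with only replicates 4 and 5, and 0 to 1 without single arrays. Calls over all probe sets went from 157 to 148, 85, 118, 272, 639, 572 and 640 in the order of these settings. Without single mock or PPBo plus IAA arrays they came to 59 to 80. With PPBo plus IAA against PPBo (0) the number of genes called was 1 with only replicates 4 and 5. There, calls over all probe sets went from 96 to 397.

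Same-numbered samples did not deviate together in every pair: over 30 pairs of replicates 1 to 3 the correlation of deviations ran from -0.14 to 0.633, and 18 exceeded 0.1. For 12 of 15 arrays, however, the mean correlation was higher with arrays of their own number (0.26 to 0.46) than with those of any other number. The exceptions were the arrays of 1 µM IAA, whose group mean includes the array that stood apart. This is a hint from the data and not the design, and the main fit does not use the replicate number. With the replicate number as a block, 2 of the 6 genes were called with PPBo plus IAA against mock, and 3 when IAA replicate 3 was also left out. In that comparison, calls over all probe sets went from 157 to 213 and to 512. Between same-numbered arrays, PEO-IAA plus IAA lay below mock in 3 of 3 for EXPA7, EXPA18, AT1G30870 and AT5G04960 and in 2 of 3 for AT3G49960 and AT3G25930. Over all probe sets the block moved the calls from 337 to 903 with 1 µM IAA against mock, from 58 to 121 for PEO-IAA plus IAA against IAA and from 551 to 1018 for kynurenine against IAA.

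Reversed signs concerned uncalled changes. For PEO-IAA plus IAA against IAA, EXPA7 came to 0.015 with 4 times the pseudocount, 0.040 with quantile normalization, 0.064 with array weights, 0.34 with the replicate block without IAA replicate 3, and -0.21 to 0.40 without single arrays. EXPA18 came to -0.0089 and AT5G04960 to -0.19 with array weights, and without single arrays they ran from -0.18 to 0.34 and from -0.30 to 0.59, while AT3G49960 ran from -1.34 to 0.64. For kynurenine against IAA, AT3G49960 came to 0.13 with quantile normalization, 0.070 with the replicate block without IAA replicate 3, and -0.32 to 0.29 without single arrays. AT3G49960 with 100 nM IAA came to 0.27 with the pooled control, and EXPA7 with PPBo plus IAA against PPBo ran from -0.55 to 0.18 without single arrays. In the untested comparisons, AT1G30870 with kynurenine against mock turned from -0.10 to 0.12 without mock replicate 1, and EXPA7 with PEO-IAA plus IAA against mock from -0.35 to 0.051 without PEO-IAA plus IAA replicate 3. The causes were not tested. In the 6 tested comparisons, over all alternatives, 530 values of single genes kept direction and side of the threshold, 31 passed it, 8 lost it and 19 reversed. Low signals, AT3G49960 with PEO-IAA above all, are the least certain.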
